A study of Danio rerio with 20 samples.

Results

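Gene expression of fosl1a mutant fin regenerates was compared with that of wildtype fin regenerates at 4 days post-amputation (dpa) across all expressed genes. The comparison used 4 of the 20 libraries of the series, 2 from fosl1a mutants and 2 from wildtype siblings, and 20157 of the 32105 genes in the count table passed a filter on low counts and were tested. The experiment held 12 unsorted caudal fin libraries in all, from both genotypes at 0, 1 and 4 dpa, with 2 libraries for each genotype and time point. The other 8 libraries came from sorted cells and were used here only to define gene sets. Both genotypes were zebrafish of the AB background, in which the mutant allele had been made with CRISPR/Cas9 and carriers had been crossed with each other to give homozygous mutants and wildtype littermates. The labels call the 4 dpa samples blastema, which was collected by a cut at the plane of amputation, and markers of the epidermis were present as well. How many fish contributed to a library is not given in the sources used here, so the p-values measure the spread between these libraries, part of which may be technical.

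fosl1a encodes Fra1, a subunit of AP-1. AP-1 is a family of dimeric transcription factors made of Fos, Jun, Atf and Maf proteins, whose genes are induced within hours by wounding and growth factors. After amputation, a zebrafish fin is covered by wound epidermis, beneath which mesenchymal cells and dedifferentiated osteoblasts form the blastema, a proliferating mass that rebuilds bony rays under the control of Wnt, Fgf, Hedgehog, Notch, Bmp and retinoic acid signalling.

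The fosl1a transcript itself (ENSDARG00000015355) was counted at similar levels in both genotypes at 4 dpa. It had 2.24 and 2.98 CPM in mutant libraries, against 2.31 and 3.40 CPM in wildtype libraries, where CPM is a count per 1000000 counts of the TMM-normalized library. These levels rest on 57 and 73 counts in mutant libraries and 46 and 87 counts in wildtype libraries. The groups overlapped, and the log2 difference of −0.14 had a standard error of 0.28 (adjusted p = 0.743, edgeR's quasi-likelihood test). A small edit of the coding sequence need not lower the count of a transcript, so this level does not check the labels. At 0 dpa the fosl1a difference was 1.61 (adjusted p = 0.0281) and at 1 dpa it was −1.69 (adjusted p = 0.0122), and both differed from that at 4 dpa in edgeR's test of the interaction (adjusted p = 0.0176 and 0.019).

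The 4 libraries held 28557223 and 24430206 counts for the mutant and 20817289 and 23911599 counts for wildtype, within the range of 10194983 to 31507208 over all 12 libraries. Across genes, the log2 CPM of the 2 mutant libraries correlated with Pearson's r = 0.9865 and those of the wildtype libraries with r = 0.986, where genes are not independent replicates. The root mean square log2 distance was 0.452 between the mutant libraries and 0.447 between the wildtype libraries, while the 4 distances between a mutant and a wildtype library lay between 0.707 and 0.866. Markers of the labelled tissue were present in every library. The 12 fibroblast and blastema markers summed to 10660 and 8838 CPM in mutant libraries and to 6386 and 7724 CPM in wildtype libraries. Of these sums, and1 alone held 6300 and 5149 CPM in the mutant and 3032 and 3911 CPM in wildtype. The 9 epidermis markers summed to 93120 and 79740 CPM in the mutant, against 66460 and 60380 CPM in wildtype.

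In total 5933 genes differed between the genotypes at 4 dpa (Benjamini-Hochberg adjusted p under 0.05 in edgeR's quasi-likelihood test), which is 29.4% of the genes tested. Of these, 2555 genes were higher in the mutant (12.7% of the genes tested) and 3378 were lower (16.8%). The differences were mostly moderate. The median size among called genes was 0.956 on the log2 scale, 2631 genes also exceeded a 2-fold difference (1221 higher and 1410 lower), and the middle 50% of all genes lay between −0.607 and 0.484 around a median of −0.077. In all 5933 called genes both mutant libraries lay on one side of both wildtype libraries, as did 71.5% of all genes tested. Leaving out a single library could therefore hardly turn the sign of a called gene. When the test asked for more than a 2-fold difference, edgeR called 0 genes (1056 had an unadjusted p under 0.05) and DESeq2 called 6. The count also depended on single libraries. It was 126 without mutant library 1, 4109 without mutant library 2, 2399 without wildtype library 1 and 1243 without wildtype library 2, and the called genes kept their sign in each of these fits.

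**Figure D1:**
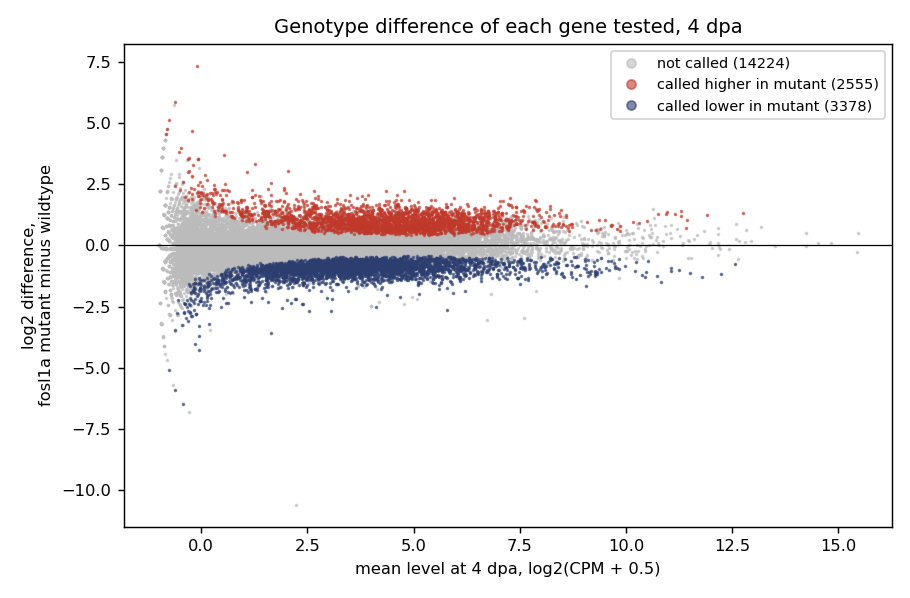
Log2 difference (fosl1a mutant minus wildtype) of each of the 20157 genes tested at 4 dpa against its mean level on a log2(CPM + 0.5) axis. Red points are the 2555 genes called higher in the mutant, blue points the 3378 called lower and grey points the rest, and called genes of both directions lie along the whole range of levels.

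The balance depended on the scaling, with 2987 genes higher and 2881 lower with DESeq2's size factors in edgeR, and 3158 higher and 2857 lower in DESeq2. It also varied with the level. Among the 7275 genes averaging 1 to 10 CPM, 604 were called higher in the mutant and 1397 lower, with a median log2 difference of −0.24. Among the 7779 genes of 10 to 100 CPM the directions were nearly even, with 1624 higher and 1604 lower and a median of 0.07. The 1238 genes at 100 CPM or more had a median of 0.15, with 232 higher and 224 lower.

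The difference at 4 dpa also moved with the length of genes, a relation looked for after the values had been seen. Lengths were genomic spans in the RefSeq table of the GRCz12tu assembly, which is not the build of the counts. A length was found by symbol for 15835 genes, 78.6% of those tested, which is under the 80% needed for a check, so the following is a description only. Among the 3167 shortest genes, 117 were higher in the mutant and 1078 lower, with a median log2 difference of −0.52. Among the 3167 longest genes, 863 were higher and 189 lower, with a median of 0.40. At 0 dpa the medians of the shortest and longest genes were −0.01 and −0.05, and at 1 dpa they were 0.04 and −0.06. The lengths of the genes in the groups below were not examined, and the part of gene length, RNA quality and library preparation in their differences was not tested.

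The same contrast called far fewer genes at the earlier time points. At 0 dpa 71 genes were called (0.352% of those tested) and at 1 dpa 248 genes (1.23%). The genotype difference at 4 dpa differed from that at 0 dpa for 3720 genes (18.5% of those tested) and from that at 1 dpa for 4478 genes (22.2%), by edgeR's test of the interaction. Of the 5933 genes called at 4 dpa, 3339 (56.3%) also had a called interaction of the same sign with 0 dpa, 3490 (58.8%) with 1 dpa and 2427 with both. Each interaction contains the difference at 4 dpa by which these genes were chosen, so this overlap is not separate evidence. Of the 71 genes called at 0 dpa, 25 were also called at 4 dpa, and of the 248 called at 1 dpa, 104 were. These 2 counts did not require the same sign, and 29.4% of all genes tested were called at 4 dpa. These interaction counts moved strongly with single libraries. Without mutant library 1 of 4 dpa they were 80 and 719, without wildtype library 2 of 4 dpa 79 and 577, and without wildtype library 1 of 4 dpa 803 and 1501. Among libraries of the earlier days, that with 0 dpa was 400 without wildtype library 2 of 0 dpa, and that with 1 dpa was 717 without wildtype library 2 of 1 dpa and 752 without mutant library 1 of 1 dpa.

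Few AP-1 subunits were called. Of 16 subunit identifiers tested, jdp2a and mafa were higher in the mutant (12.5%, against 12.7% of all genes tested) and jund was lower (6.25%, against 16.8%). The other 13 were not called, and fosab stands among them under both of its identifiers. jdp2a, which encodes a Jun dimerization protein that represses AP-1 targets, had 19.5 and 14.7 CPM in mutant libraries, against 6.17 and 5.54 CPM in wildtype libraries. Its log2 difference was 1.54 (standard error 0.33, adjusted p = 0.00753 in edgeR), and the groups did not overlap. mafa, a large Maf factor, had 189 and 228 CPM in the mutant and 111 and 99.2 CPM in wildtype, a log2 difference of 0.99 (adjusted p = 0.0321). jund, a Jun protein that is often expressed without stimulation, had 42.6 and 51.5 CPM in the mutant and 71.1 and 90.3 CPM in wildtype (−0.78, adjusted p = 0.0432). Without mutant library 1 or without wildtype library 2 no AP-1 subunit was called, and 1 was called without either of the other libraries of 4 dpa.

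The largest differences among AP-1 genes were below the threshold. fosab, the zebrafish c-Fos gene, is listed under 2 identifiers with nearly proportional values, whose reads cannot be separated with certainty. Under the first it had 18.98 and 69.86 CPM in mutant libraries, against 270 and 416 CPM in wildtype libraries, a log2 difference of −2.95 (standard error 1.08, adjusted p = 0.0611 in edgeR). jdp2b was at 7.86 and 9.23 CPM in the mutant and at 29.8 and 59.9 CPM in wildtype (−2.39, adjusted p = 0.06). In both genes the libraries of the genotypes were well apart. For fosab the mutant libraries differed widely from each other, and for jdp2b the wildtype libraries did, while its mutant libraries were close. The fit estimates the spread of a gene over all days, and jdp2b had 16.75 and 139.5 CPM in the mutant libraries of 1 dpa. Under its first identifier, fosab had 92.63 and 783.8 CPM in the wildtype libraries of 0 dpa. fosl1b, the second zebrafish gene for Fra1, had 18.6 and 14.7 CPM in the mutant and 18.3 and 46.5 CPM in wildtype, so that the groups overlapped (−0.97, adjusted p = 0.272). junba, jun and FOSL2, which encode abundant AP-1 partners, had log2 differences of 0.79, 0.14 and 0.28 with adjusted p-values of 0.353, 0.796 and 0.476. Among 27 immediate early genes, which respond to stimuli before new protein is made, 1 was called higher (3.7%) and 2 were called lower (7.41%). Both shares were under those of all genes tested, 12.7% and 16.8%. Among the lower genes was DUSP1, a phosphatase that switches off MAP kinases. It had 10.5 and 19.8 CPM in mutant libraries, against 79.0 and 109 CPM in wildtype libraries (−2.63, standard error 0.83, adjusted p = 0.0358 in edgeR). In DUSP1, fosab and jdp2b both mutant libraries lay below both wildtype libraries, while junba, jun and FOSL2 had positive differences. Such a lack of overlap, in either direction, held for 71.5% of all genes tested.

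**Figure D2:**
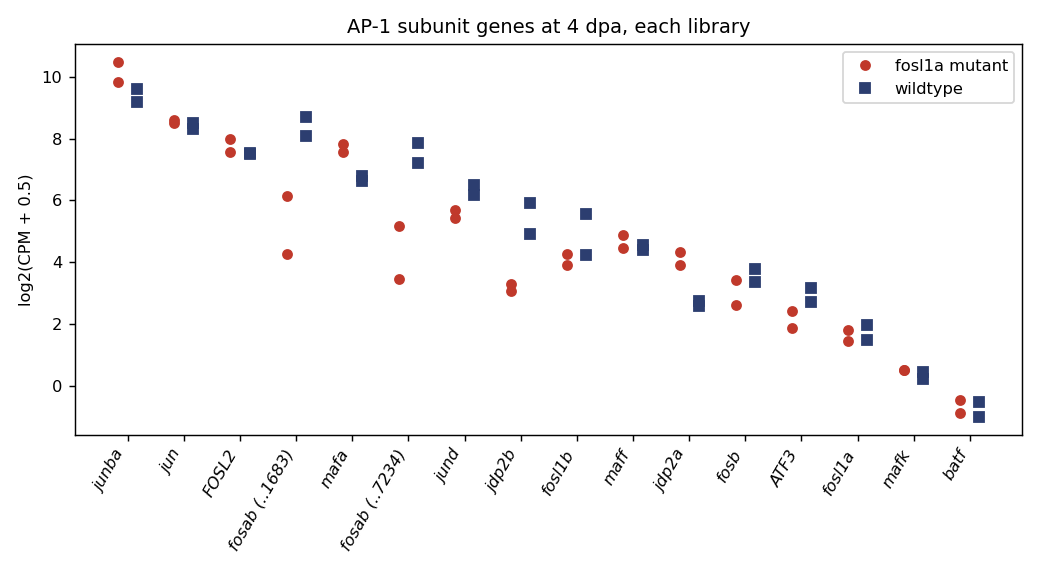
Level of every AP-1 subunit gene tested at 4 dpa on a log2(CPM + 0.5) axis, with red circles for the 2 fosl1a mutant libraries and blue squares for the 2 wildtype libraries of each gene. jdp2a and mafa lie higher and jund lower in the mutant, and fosl1a overlaps between the genotypes. fosab and jdp2b are far apart between the genotypes, with a wide spread between mutant libraries for fosab and between wildtype libraries for jdp2b.

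The genes with the largest fitted differences were mostly sparse. Of the 15 that were highest in the mutant, mbpa encodes a structural protein of myelin, and pou3f1 encodes a transcription factor of myelinating Schwann cells. mbpa had 0.629 and 1.02 CPM in mutant libraries, against 0.151 and 0 CPM in wildtype libraries, which differed by 3.53 on the log2 scale (adjusted p = 0.00846 in edgeR). Likewise, pou3f1 had 0.472 and 0.695 CPM in the mutant and 0.0502 and 0.039 CPM in wildtype (3.57, adjusted p = 0.03). Both genes were low in every library. That both mutant libraries lay above both wildtype libraries was a condition for the choice of these 15 genes. At a higher level, c4b, a gene of complement component C4, had 4.13 and 2.70 CPM in the mutant and 0.602 and 0.117 CPM in wildtype (3.33, adjusted p = 0.00285). fancm, a helicase of the Fanconi anaemia DNA repair pathway, had 7.27 and 5.68 CPM in the mutant and 0.904 and 0.702 CPM in wildtype (3.02, standard error 0.36). SLC8A2, PPARGC1A, SEPTIN8 (ENSDARG00000014233), adgrb1b, SPIRE2 and slc4a3 also belonged to these 15, with log2 differences from 3.01 for slc4a3 to 4.68 for SLC8A2, each at under 1 CPM in all 4 libraries. ESPNL, stm and U6 had no counts in wildtype, and 15, 7 and 6 counts in the mutant libraries together. Their pooled mutant levels were 4.56, 2.13 and 1.82 times a floor of 3 counts over the wildtype libraries. These ratios leave out the error of the mutant counts, which for ESPNL were 2 and 13.

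Among the 15 genes lowest in the mutant, ucmaa stood at the highest level. ucmaa encodes a matrix protein of cartilage and bone and had 2.52 and 1.72 CPM in mutant libraries, against 12.6 and 14.6 CPM in wildtype libraries, a log2 difference of −2.68 (standard error 0.31, adjusted p = 0.00285 in edgeR). klf1, a transcription factor of red blood cell precursors, had 0.0393 and 0.0817 CPM in the mutant and 0.552 and 0.468 CPM in wildtype (−2.97). igfbp6a, a binding protein of insulin-like growth factors, had 0.0393 and 0.163 CPM in the mutant and 1.05 and 0.429 CPM in wildtype (−2.79). hpxb, a hemopexin gene, had 0 and 0.817 CPM in the mutant, against 3.31 and 6.28 CPM in wildtype (−3.56, adjusted p = 0.0312). crp6, ly6m5, SRD5A2, ccr12b.1, MLLT11, ggact.3 and znf1147 lay between −3.45 and −2.68. The small RNA genes U3 and SNORD54 had log2 differences of −2.90 and −2.72, and their counts cannot be told apart from those of genes that overlap them. qdprb.4 and MATN3, a matrilin gene of cartilage, had no counts in the mutant, and 22 and 15 counts in the wildtype libraries together. Their pooled wildtype levels were 8.04 and 5.48 times a floor of 3 counts over the mutant libraries. These ratios leave out the error of the wildtype counts, which for MATN3 were 2 and 13.

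Among genes averaging at least 10 CPM, the 12 with the largest difference in each direction were chosen after their values had been seen. Of those higher in the mutant, lama1, the laminin alpha 1 chain, had 221 and 138 CPM in mutant libraries, against 47.1 and 38.5 CPM in wildtype libraries (log2 difference 2.07, standard error 0.65, adjusted p = 0.0349 in edgeR). DST, a spectraplakin that links keratin filaments to hemidesmosomes, had 252 and 234 CPM in the mutant and 68.4 and 58.1 CPM in wildtype (1.94). PARD3, a polarity protein of epithelial junctions, had 75.7 and 64.5 CPM in the mutant, against 21.3 and 17.3 CPM in wildtype (1.86). In each of these genes the lower mutant library was at least 2-fold above the higher wildtype library. PDGFD, a platelet-derived growth factor, reached 45.4 and 43.0 CPM in the mutant and 10.3 and 8.82 CPM in wildtype (2.21, standard error 0.38, adjusted p = 0.00408). tgm8, a transglutaminase gene, had 31.3 and 34.1 CPM in the mutant and 8.79 and 5.19 CPM in wildtype (2.23). RELA, an NF-kappaB subunit, had 42.1 and 37.3 CPM in the mutant, against 12.3 and 9.95 CPM in wildtype (1.84). prg4a, HECTD4, bod1l1, akap9, megf6a and mical3b completed the 12, with log2 differences from 1.83 to 2.07.

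The abundant genes lowest in the mutant included DUSP1 and the globin gene ba1. mstnb, a zebrafish myostatin gene, had 12.5 and 3.60 CPM in mutant libraries, against 26.7 and 38.8 CPM in wildtype libraries (log2 difference −2.03, standard error 0.44, adjusted p = 0.00814 in edgeR). cfd, complement factor D, had 40.01 and 22.76 CPM in the mutant and 138 and 92.7 CPM in wildtype (−1.88). fpr1, annotated as a formyl peptide receptor, had 8.10 and 7.80 CPM in the mutant, against 24.8 and 25.5 CPM in wildtype (−1.66). icn2, an S100-family gene also known as ictacalcin 2, had 256 and 262 CPM in the mutant and 884 and 748 CPM in wildtype (−1.66, standard error 0.18, adjusted p = 0.00285). RPA3, the smallest subunit of the single-strand DNA binding protein RPA, had 4.48 and 6.54 CPM in the mutant and 16.97 and 19.9 CPM in wildtype (−1.75). lye, a Ly6-type gene of the epidermis, had 6.84 and 10.7 CPM in the mutant and 28.4 CPM in each wildtype library (−1.70). anxa3a, cxl34b.11, ifi44a3 and ndufc1 lay between −1.86 and −1.61.

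**Figure D3:**
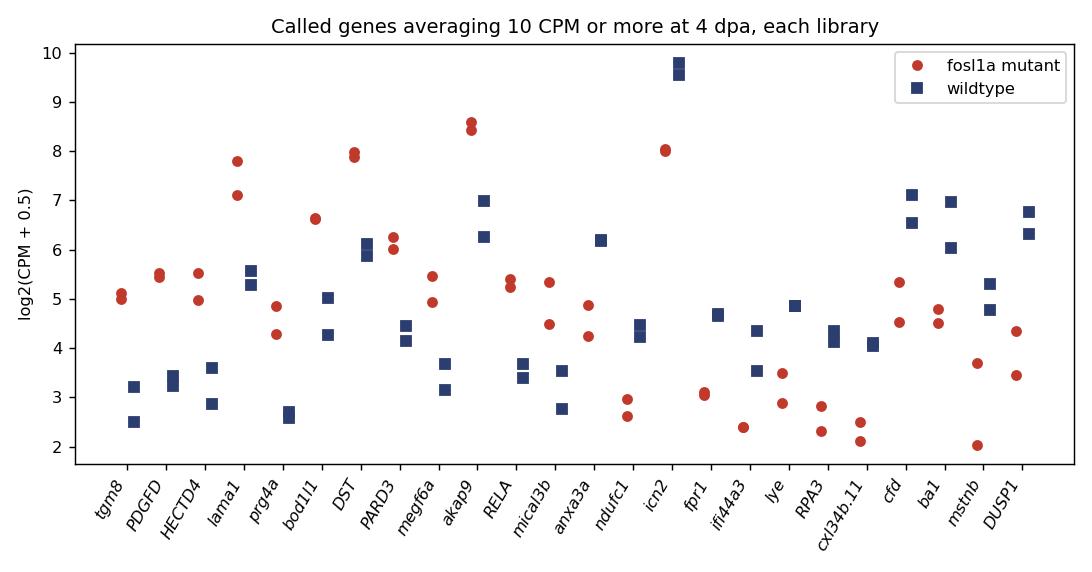
Level on a log2(CPM + 0.5) axis of the 24 genes averaging at least 10 CPM with the largest called differences, 12 in each direction, in each of the 4 libraries. Red circles are fosl1a mutant libraries and blue squares wildtype libraries. Only called genes whose genotypes did not overlap could enter the 24.

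Genes of the signalling pathways that pattern the regenerate were more often higher than lower in the mutant. In the Wnt list 13 of 38 genes tested were higher (34.2%, against 12.7% of all genes tested) and 1 was lower (2.63%, against 16.8%). The median log2 difference of the list was 0.59, against −0.08 over all genes tested. tcf7, a transcription factor that works with beta-catenin, had 95.0 and 64.8 CPM in mutant libraries, against 31.8 and 22.1 CPM in wildtype libraries (1.57, standard error 0.34, adjusted p = 0.00848 in edgeR). Its relative lef1 had 129 and 126 CPM in the mutant and 80.3 and 77.1 CPM in wildtype (0.69, adjusted p = 0.0384). The ligand genes wnt3, WNT10A and WNT5B were higher by 1.15, 0.89 and 0.85, and the feedback inhibitors APCDD1 and AXIN2 by 1.505 and 0.70. Only the ligand gene wnt4b was lower, with 18.7 and 25.1 CPM in the mutant and 40.3 and 36.9 CPM in wildtype (−0.82). The medians of the Wnt list were −0.19 at 0 dpa and −0.18 at 1 dpa, where 0 genes and 1 gene of the list were called. Leaving out a library of 4 dpa in turn gave Wnt medians from 0.32 to 0.73, but without mutant library 1 or wildtype library 2 no gene of the list was called higher, against 7 without mutant library 2 and 6 without wildtype library 1.

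Of 14 Hedgehog pathway genes, 5 were higher in the mutant (35.7%, against 12.7% of all genes tested) and 0 lower (against 16.8%). Their median log2 difference was 0.72. PTCH1, the receptor and a transcriptional target of the pathway, had 53.2 and 41.8 CPM in mutant libraries, against 20.1 and 18.1 CPM in wildtype libraries (1.31, standard error 0.30, adjusted p = 0.0105 in edgeR). gli1, a transcription factor and target, was higher by 0.70, gli2a by 0.75, and the secreted or cell surface proteins scube2 and cdon by 0.80 and 0.83. shha, the ligand made by basal epidermis, had 14.9 and 16.8 CPM in the mutant and 8.59 and 7.96 CPM in wildtype, which did not pass (0.94, adjusted p = 0.124). Of 27 Fgf pathway genes, 8 were higher (29.6%) and 0 lower, with a median of 0.49. fgf20a, a ligand needed to start fin regeneration, had 11.2 and 13.9 CPM in the mutant and 7.28 and 5.23 CPM in wildtype (1.01, standard error 0.23, adjusted p = 0.00979). The targets and feedback inhibitors spry1, il17rd and etv4 were higher by 1.51, 1.19 and 0.90. At 1 dpa fgf20a had a log2 difference of −1.66 (adjusted p = 0.012) and etv4 one of −1.06 (adjusted p = 0.0212), opposite in sign to those at 4 dpa. In the Hedgehog and Fgf lists 0 and 0 genes were called without mutant library 1, and 0 and 1 without wildtype library 2.

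Called retinoic acid genes moved in both directions, while called Notch genes were mostly higher. Of 16 Notch genes, 4 were higher (25%, against 12.7% of all genes tested) and 1 was lower (6.25%, against 16.8%). Their median log2 difference was 0.35. jag1a, a ligand, had 71.9 and 93.3 CPM in mutant libraries, against 23.9 and 26.7 CPM in wildtype libraries (1.71, standard error 0.27, adjusted p = 0.00345 in edgeR). The receptors notch2 and notch3 and the ligand jag2b were higher by 1.204, 1.17 and 1.08, while the ligand DLD was lower by −0.58. Of 16 retinoic acid genes, 5 were higher (31.2%) and 4 lower (25%), with a median of 0.22. aldh1a2, which makes retinoic acid, was higher by 0.57 and STRA6, a retinol transporter, by 1.04. cyp26a1, which degrades retinoic acid, had 68.8 and 77.6 CPM in the mutant and 164 and 190 CPM in wildtype (−1.27, standard error 0.24, adjusted p = 0.00511), whereas its relative CYP26C1 was higher by 0.73. lratb and rbp4, which store and carry retinol, were lower by −1.31 and −1.18. Of 40 Bmp, activin and Tgf-beta genes, 5 were higher (12.5%, against 12.7% of all genes tested) and 2 lower (5%, against 16.8%), with a median of 0.27. The receptor TGFBR2 was higher by 1.38, and id4 and id3, targets of Bmp signalling, were lower by −1.30 and −0.80. Each of these 3 lists had 1 called gene without mutant library 1.

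**Figure D4:**
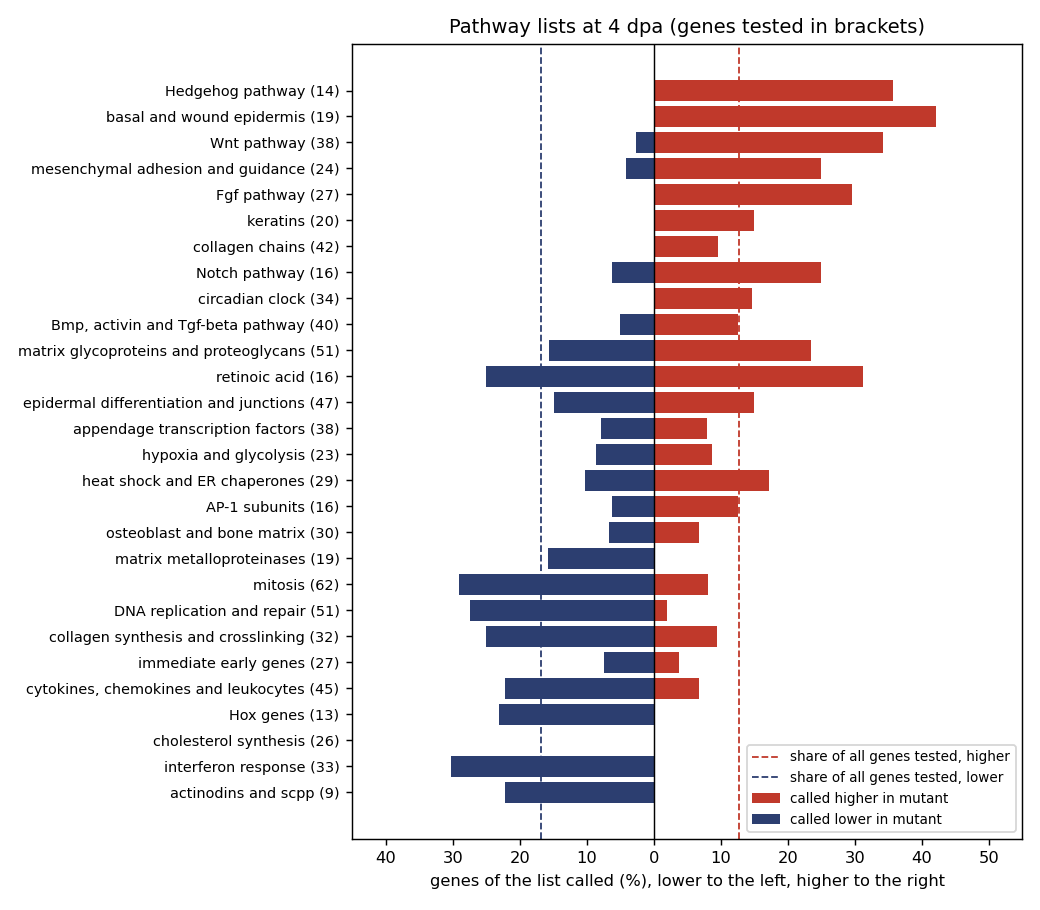
Percentage of the genes of each pathway list called at 4 dpa, with lists down the page and the number of genes tested in brackets. Red bars to the right are genes higher in the fosl1a mutant, blue bars to the left genes lower in the mutant, and dashed lines the shares over all genes tested, 12.7% higher and 16.8% lower.

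Of 19 basal and wound epidermis genes, 8 were higher in the mutant (42.1%, against 12.7% of all genes tested) and 0 lower. Their median log2 difference of 0.72 stayed between 0.68 and 0.85 when single libraries of 4 dpa were left out. Of these 8 genes, 7 also stand in other groups described here, namely lef1, WNT5B, fgf20a, fn1b, fras1, lamb1a and lamb3. TP63, the transcription factor of basal keratinocytes, had 310 and 303 CPM in mutant libraries, against 196 and 172 CPM in wildtype libraries (0.74, adjusted p = 0.0209 in edgeR). Of 20 keratins 3 were higher (15%, near the 12.7% of all genes tested) and 0 lower. krt18 had 5061 and 5816 CPM in the mutant and 2334 and 2268 CPM in wildtype (1.24, standard error 0.25, adjusted p = 0.0062), and krt97 and krt96 were higher by 1.03 and 1.38. Keratin genes resemble each other, and only uniquely mapped reads were counted for them. Of 47 genes of differentiated epidermis and its junctions, 7 were higher and 7 lower (14.9% each), near the 12.7% and 16.8% over all genes tested. The higher ones included PKP3 (1.09) and tjp1a (0.85), and the lower ones epcam (−0.93), f11r.1 (−0.83), cldn7b (−0.74) and cldnh (−0.72). None of these 3 lists had a called gene without mutant library 1.

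Of 51 matrix glycoproteins and proteoglycans, 12 were higher in the mutant (23.5%, against 12.7% of all genes tested) and 8 lower (15.7%, under the 16.8%). Their median log2 difference was 0.24. Laminins, the main glycoproteins of basement membranes, were higher in the mutant in 7 of 14 genes (50%) and lower in 0, with a median of 0.83. They summed to 1664 and 1218 CPM in mutant libraries, against 784 and 768 CPM in wildtype libraries. lamb1a had 552 and 422 CPM in the mutant and 219 and 208 CPM in wildtype (1.19, standard error 0.26, adjusted p = 0.009 in edgeR), and LAMA5 and lamb3 were higher by 1.09 and 1.08. The fibronectins fn1a and fn1b, which the wound epidermis and blastema use as substrate, were higher by 0.63 and 0.70. Among collagen chains 4 of 42 were higher (9.52%, under the 12.7% of all genes tested) and 0 lower, namely COL4A2 (1.32) of basement membranes, col17a1b (1.201) of hemidesmosomes, col14a1a (1.01) and col8a1a (0.99). aspn, a small proteoglycan of connective tissue, had 246 and 266 CPM in the mutant and 544 and 619 CPM in wildtype (−1.18, standard error 0.20, adjusted p = 0.00408), and bgna and ogn were lower by −1.19 and −1.05. mfap5, a microfibril protein, was lower by −1.52. Of 32 genes for collagen processing and crosslinking, 8 were lower (25%, against 16.8% of all genes tested) and 3 higher (9.38%, against 12.7%). The lower ones included the prolyl isomerases fkbp14 (−1.12) and ppib (−0.66), the chaperone serpinh1a (−0.70) and the crosslinking enzyme gene loxl1 (−0.78). No laminin, collagen chain or glycoprotein was called higher without mutant library 1, while 1 glycoprotein or proteoglycan and 1 collagen processing gene were called lower. Without wildtype library 2, 0 laminins, 0 collagen chains and 1 glycoprotein were called higher.

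Few bone genes were called. Of 30 genes of osteoblasts and bone matrix, 2 were higher in the mutant and 2 lower (6.67% each, under the shares over all genes tested), with a median log2 difference of −0.05 that became 0.01 with DESeq2's size factors. runx2b, an early osteoblast transcription factor, had 37.2 and 30.2 CPM in mutant libraries, against 18.47 and 15.06 CPM in wildtype libraries (1.01, standard error 0.17, adjusted p = 0.00408 in edgeR), and alpi.1 was higher by 0.94. bglap, which encodes the late matrix protein osteocalcin, had 3.26 and 2.04 CPM in the mutant and 12.6 and 4.76 CPM in wildtype (−1.70, adjusted p = 0.0134), and entpd5a, which is needed for mineralization, was lower by −1.01. sp7, the transcription factor of committed osteoblasts, had 44.0 and 35.6 CPM in the mutant and 42.4 and 47.3 CPM in wildtype (−0.17, adjusted p = 0.74). Among 9 actinodin and secretory calcium-binding phosphoprotein genes, scpp6 (−2.16) and scpp1 (−1.68) were lower (22.2%, against 16.8% of all genes tested). The actinodins and1 and and2, proteins of the fin fold fibres, had differences of 0.72 and −0.09 with adjusted p-values of 0.5 and 0.959. For and1 the genotypes did not overlap, with 6300 and 5149 CPM in the mutant and 3032 and 3911 CPM in wildtype. The spread of a gene was estimated over all days. In the wildtype libraries of 0 dpa, and1 had 162 and 11.81 CPM and and2 had 37.21 and 0.4689 CPM. A missing call of these genes is therefore no sign of equal levels. col1a1a, a chain of type I collagen, had 53650 and 26330 CPM in the mutant and 54660 and 42320 CPM in wildtype (−0.28, adjusted p = 0.774), a wide spread within the mutant. These lists, too, had no called gene without mutant library 1.

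In a list of 13 Hox genes, 3 were lower in the mutant (23.1%, against 16.8% of all genes tested) and 0 higher. By name, 1 of 11 hoxa genes (9.09%) and 2 of 13 hoxc genes (15.4%) tested were lower, both under the share over all genes tested. hoxc13a had 35.18 and 33.05 CPM in mutant libraries, against 64.5 and 72.0 CPM in wildtype libraries (−1.001, standard error 0.156, adjusted p = 0.0034 in edgeR), and hoxa13b and hoxd13a were lower by −0.63 and −1.39. These are posterior Hox genes of the distal fin. At 0 dpa the hoxa13b difference was 1.105 (adjusted p = 0.0226). Of 38 other transcription factors of appendages, 3 were higher and 3 were lower (7.89% each, under the shares over all genes tested). The higher ones were meis1a, lmx1ba and twist3, by 1.09, 0.86 and 0.84. The lower ones included dlx6a and msx3, by −0.93 and −0.65. dlx5a and msx1b did not pass, with differences of −0.46 and 0.17. The leptin gene lepb, which is strongly induced by amputation, had 25.9 and 30.1 CPM in the mutant and 31.7 and 29.1 CPM in wildtype (−0.12, adjusted p = 0.852). No Hox gene was called without mutant library 1, and 1 was called without each of the other libraries of 4 dpa.

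Genes of cell division were lower more often than higher. Of 62 mitosis genes, 18 were lower in the mutant (29%, against 16.8% of all genes tested) and 5 higher (8.06%, against 12.7%). Their median log2 difference was −0.17. cdk1, the kinase that drives entry into mitosis, had 24.3 and 23.5 CPM in mutant libraries, against 48.8 and 47.3 CPM in wildtype libraries (−1.01, standard error 0.26, adjusted p = 0.017 in edgeR). The chromosomal passenger gene birc5a was lower by −1.44, and the anaphase genes ube2c and cdc20 by −1.06 and −0.79. By contrast, cenpe, a kinetochore motor, had 147 and 84.7 CPM in the mutant and 38.1 and 38.6 CPM in wildtype (1.59, standard error 0.22, adjusted p = 0.00295), and the checkpoint kinase gene bub1 and the condensin gene smc4 were higher by 1.48 and 1.35. ccnb1, top2a and mki67 did not pass, with differences of −0.13, −0.08 and −0.59. Of 51 genes of DNA replication and repair, 14 were lower (27.5%) and 1 was higher (1.96%), with a median of −0.26. RRM2, a subunit of ribonucleotide reductase, had 16.7 and 17.8 CPM in the mutant and 48.6 and 53.4 CPM in wildtype (−1.56), and PCNA had 140 and 119 CPM in the mutant and 237 and 268 CPM in wildtype (−0.96, adjusted p = 0.00477). fen1 and GINS2 were lower by −1.11 and −1.37, and chaf1a, a histone chaperone, was higher by 0.85. At 1 dpa the medians of these lists were 0.42 and 0.34, with 0 genes called. When mutant library 1 was left out, 1 mitosis gene (higher) and no replication gene was called, and without wildtype library 2 there were 4 lower mitosis genes and 6 lower replication genes.

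Immune genes were called lower more often than higher in the mutant. Of 45 genes of cytokines, chemokines and leukocytes, 10 were lower (22.2%, against 16.8% of all genes tested) and 3 higher (6.67%, against 12.7%). Of 33 genes of the interferon response, 10 were lower and 0 higher, with a median log2 difference of −0.60. psme2, an activator of the immunoproteasome, had 39.8 and 47.4 CPM in mutant libraries, against 108 and 94.4 CPM in wildtype libraries (−1.22, standard error 0.20, adjusted p = 0.00357 in edgeR). irf7, a transcription factor of the response, and b2m, the light chain of class I molecules, were lower by −1.28 and −0.84. The genes of the immunoproteasome subunits PSMB9 and psmb12 were lower by −1.50 and −1.59. Of 22 major histocompatibility genes, 9 were lower and 0 higher, and they summed to 570 and 685 CPM in the mutant and to 1064 and 1162 CPM in wildtype. Of 49 chemokines and chemokine receptors, 22 were lower and 1 was higher, with a median of −1.05. ccl25b had 12.1 and 13.8 CPM in the mutant and 35.4 and 34.3 CPM in wildtype (−1.43, adjusted p = 0.0038), while at 1 dpa it had a difference of 2.29 (adjusted p = 0.00198). cxcl8b.1, a neutrophil attractant, had 0.747 and 1.27 CPM in the mutant and 3.36 and 4.02 CPM in wildtype (−1.88), and the receptor CXCR4 was lower by −0.95. The leukocyte genes LCP1 and cd74a were higher, by 1.52 and 0.80, and the 9 leukocyte markers summed to 1768 and 1362 CPM in the mutant and to 1104 and 1215 CPM in wildtype. In bulk tissue, fewer cells of a type and less RNA per cell cannot be told apart. The genes called lower in the interferon list, the major histocompatibility genes and the chemokines numbered 0, 0 and 1 without mutant library 1, and 2, 1 and 5 without wildtype library 2.

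Genes of mitochondria, ribosomes and the proteasome were called lower more often than higher in the mutant. Among all genes tested, 16.8% were lower and 12.7% higher. All 13 genes of the mitochondrial genome were lower in the mutant, with a median log2 difference of −1.10, and they summed to 10990 and 15680 CPM in mutant libraries, against 29420 and 25340 CPM in wildtype libraries. MT-CO3, a subunit of cytochrome c oxidase, had 1684 and 2445 CPM in the mutant and 5643 and 4414 CPM in wildtype (−1.28, standard error 0.24, adjusted p = 0.00502 in edgeR), and MT-ND1 and MT-CO1 were lower by −1.10 and −0.77. The medians of these genes at 0 and 1 dpa were 0.05 and −0.01, and the difference at 4 dpa differed from that at 0 dpa for 12 of them and from that at 1 dpa for 10. Leaving out mutant library 1, mutant library 2, wildtype library 1 or wildtype library 2 left 0, 13, 6 and 8 of them called, with medians between −1.34 and −0.87.

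Among nuclear genes of the respiratory chain, 59 of 110 were lower (53.6%, against 16.8% of all genes tested) and 4 higher (3.64%, against 12.7%). Their median log2 difference was −0.65. COX7C had 25.04 and 33.75 CPM in mutant libraries, against 93.1 and 84.6 CPM in wildtype libraries (−1.60, standard error 0.21, adjusted p = 0.00285 in edgeR), and UQCRQ, COX7A2 and ndufc1 were lower by −1.60, −1.49 and −1.62. The summed level of these genes was nevertheless alike, at 9821 and 9259 CPM in the mutant and 9999 and 8708 CPM in wildtype. Of 72 genes of the mitochondrial ribosome, 41 were lower and 0 higher (median −0.80), with sums of 1166 and 1208 CPM in the mutant and 1566 and 1369 CPM in wildtype. Of 95 genes with symbols of the cytosolic ribosome, 35 were lower and 5 higher (median −0.23). Members of these groups were picked by the start of a symbol. Assembly factors and genes that encode no ribosomal protein may therefore be among them. RPL27 was lower by −1.38 and RPS15A by −1.29, while rps3 was higher by 1.38, with 3775 and 3489 CPM in the mutant and 1509 and 1280 CPM in wildtype. The genes with symbols of the cytosolic ribosome summed to 98370 and 91830 CPM in the mutant and to 102200 and 82710 CPM in wildtype, so that the groups overlapped. Of 47 proteasome genes, 22 were lower and 3 higher, with PSMD2 higher by 1.81. When mutant library 1 was left out, the genes called lower in the respiratory chain, the mitochondrial ribosome, the cytosolic ribosome and the proteasome numbered 1, 0, 1 and 0, and without wildtype library 2 they numbered 38, 23, 21 and 9.

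Several smaller families had members called lower and none called higher, against 16.8% lower and 12.7% higher among all genes tested. Of 16 annexins, calcium-dependent membrane binding proteins, 10 were lower in the mutant and 0 higher, with a median log2 difference of −0.87 and sums of 2583 and 2919 CPM in mutant libraries, against 4344 and 4392 CPM in wildtype libraries. anxa1a had 693 and 851 CPM in the mutant and 1587 and 1583 CPM in wildtype (−1.04, standard error 0.19, adjusted p = 0.0049 in edgeR). Of 11 S100 genes, whose proteins include partners of annexins, 4 were lower and 0 higher. s100a10b had 683 and 924 CPM in the mutant and 1998 and 1747 CPM in wildtype (−1.22, adjusted p = 0.00427), and the family summed to 1015 and 1298 CPM in the mutant and to 2688 and 2354 CPM in wildtype. Of 10 subunit genes of the Arp2/3 complex, which nucleates branched actin, 7 were lower, among them ARPC5 by −1.12 and ARPC3 by −1.07. Of 11 alg genes, which build the glycan for N-glycosylation, 9 were lower, and of 9 commd genes, which act in protein recycling from endosomes, 7 were. Tetraspanins (10 of 24 lower, 41.7%), galectins of the lgals family (5 of 12, 41.7%) and claudins (4 of 16, 25%) had 0 members called higher. They stand among 318 families with at least 8 genes tested, of which 172 had a median below 0. The annexins, S100 genes and Arp2/3 genes called lower numbered 1, 1 and 0 without mutant library 1, and 6, 3 and 3 without wildtype library 2.

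Other families had more members called higher than lower, against 12.7% higher and 16.8% lower among all genes tested. Of 72 genes for chromatin enzymes and their partners, 34 were higher in the mutant and 1 was lower, with a median log2 difference of 0.65 and sums of 4742 and 3962 CPM in mutant libraries, against 2770 and 2610 CPM in wildtype libraries. CHD7, a chromatin remodeller, had 80.2 and 73.3 CPM in the mutant and 32.5 and 27.2 CPM in wildtype (1.36, standard error 0.24, adjusted p = 0.00451 in edgeR), and ncoa3, a coactivator of nuclear receptors, had 140 and 129 CPM in the mutant and 58.7 and 51.0 CPM in wildtype (1.296). Of the chd family 7 of 11 genes were higher, of the kdm family of histone demethylases 11 of 21, and of the ncoa family 5 of 8. Of 46 usp genes for deubiquitinating enzymes 19 were higher and 3 lower, of 21 nup genes for nucleoporins 9 and 2, and of 32 myo genes for myosins 12 and 2. Among guidance genes, 8 of 16 Eph receptors and 5 of 8 robo and slit genes were higher and 0 lower, with medians of 0.84 and 0.94. ephb4a had 142 and 123 CPM in the mutant and 59.5 and 37.3 CPM in wildtype (1.45, adjusted p = 0.0152), and robo3 and robo1 were higher by 1.52 and 1.31. The chromatin, Eph, and robo and slit genes called higher numbered 0, 0 and 0 without mutant library 1, and 7, 1 and 2 without wildtype library 2. Whether these counts go beyond the relation with gene length described above was not tested.

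**Figure D5:**
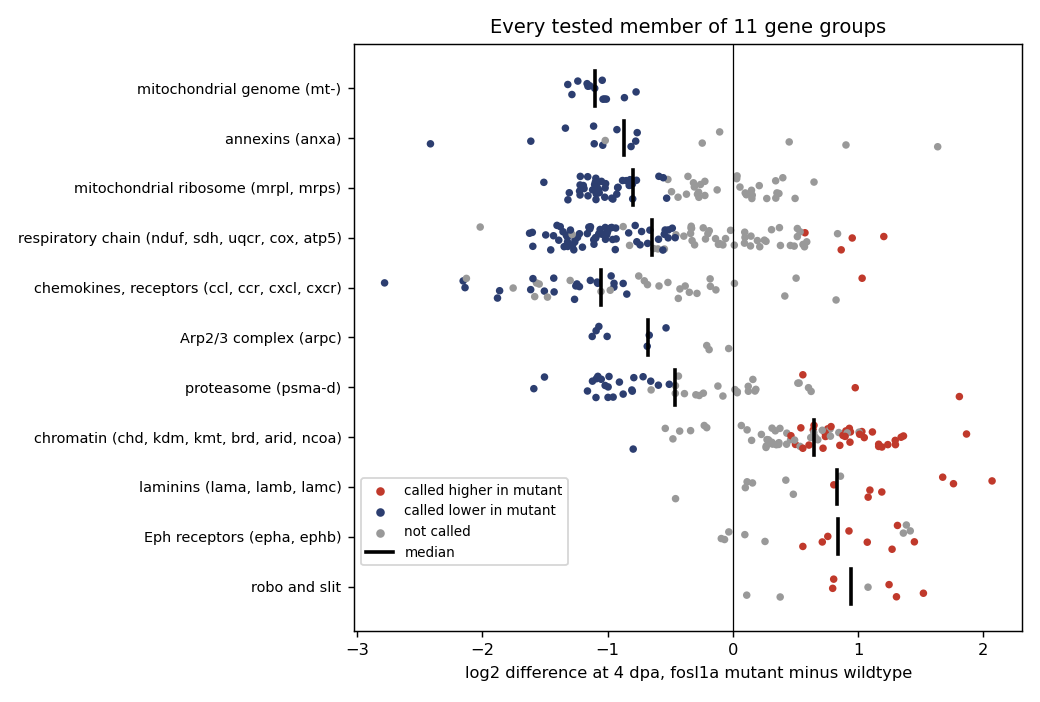
Log2 difference at 4 dpa (fosl1a mutant minus wildtype) of every tested member of 11 gene groups, with 1 row for each group and black marks at the medians. Red points were called higher in the mutant, blue points lower and grey points neither, and the 13 genes of the mitochondrial genome are all blue while chromatin enzymes, Eph receptors, laminins and robo and slit genes have medians from 0.65 to 0.94.

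Genes of other lists differed less, or in few members. Of 34 circadian clock genes, 5 were higher in the mutant (14.7%, near the 12.7% of all genes tested) and 0 lower. per2, a light-responsive clock gene, had 97.2 and 87.7 CPM in mutant libraries, against 36.9 and 28.8 CPM in wildtype libraries (log2 difference 1.49, standard error 0.31, adjusted p = 0.00679 in edgeR), and per3 was higher by 0.90. Of 29 heat shock and endoplasmic reticulum chaperone genes, 5 were higher (17.2%) and 3 lower (10.3%), against 12.7% and 16.8% of all genes tested. HSPA8 was higher by 1.35 and HSPE1, a mitochondrial chaperonin, was lower by −1.25. Of 23 hypoxia and glycolysis genes, 2 were higher and 2 lower (8.7% each, under the shares over all genes tested). Of 19 matrix metalloproteinases, 3 were lower (15.8%, under the 16.8% of all genes tested) and 0 higher. One of the lower ones was MMP2, with 611 and 608 CPM in the mutant and 1031 and 1308 CPM in wildtype (−0.94, adjusted p = 0.0056 in edgeR). None of 26 cholesterol synthesis genes was called in edgeR, although their median was −0.58. No gene of these 5 lists was called without mutant library 1.

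In every marker list except that of osteoblasts, the summed levels of the genotypes did not overlap. Abundant members lead such sums. In the fibroblast and blastema list, and1 alone had 6300 and 5149 CPM in the mutant and 3032 and 3911 CPM in wildtype. It was not called, and 2 of the 12 markers of that list were called higher (16.7%). For comparison, libraries of the genotypes did not overlap for 71.5% of all genes tested. Of 9 nerve and glia markers tested, 4 were higher in the mutant (44.4%, against 12.7% of all genes tested) and 0 lower. Nerve and glia markers summed to 54.0 and 58.5 CPM in mutant libraries, against 29.6 and 31.7 CPM in wildtype libraries. gap43, a growth cone protein of axons, had 6.88 and 14.4 CPM in the mutant and 3.56 and 3.55 CPM in wildtype (1.58, adjusted p = 0.0289 in edgeR), and the Schwann cell receptor gene erbb3b was higher by 0.64, beside mbpa described above. sox10, a defining gene of glia and pigment cells, did not pass (0.56, adjusted p = 0.425). Blood cell markers, of which hbbe3 was at 0 in all 4 libraries, summed to 62.0 and 80.7 CPM in the mutant and to 139 and 241 CPM in wildtype. The globin genes ba1 and hbaa1 were lower by −1.94 and −1.31, but alas2, the heme synthesis enzyme of erythroid cells, was higher by 0.69. Mucous cell markers summed to 62.6 and 63.0 CPM in the mutant and to 136 and 105 CPM in wildtype, with agr1 lower by −1.21. Osteoblast markers summed to 22950 and 16890 CPM in the mutant and to 24170 and 17060 CPM in wildtype, ionocyte markers to 219 and 231 CPM and to 239 and 273 CPM, and pigment cell markers to 98.5 and 83.9 CPM and to 110 and 116 CPM. Endothelium markers summed to 113 and 99.9 CPM in the mutant and to 79.9 and 89.1 CPM in wildtype, and muscle markers, of which pvalb2 was at 0, to 16.1 and 14.1 CPM and to 10.3 and 10.5 CPM. The part of cell composition in these sums and in the differences of single genes was not tested.

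Gene sets from libraries outside the 4 dpa comparison were then described. Over all genes tested, 12.7% were higher in the mutant and 16.8% lower. The first set held 1023 genes that were higher in sorted sp7+ cells (osteoblast lineage) than in sp7− cells at 4 dpa. Of these, 61 were higher in mutant regenerates (5.96%) and 182 lower (17.8%), with a median log2 difference of −0.27. Of 577 genes that were lower in sp7+ than in sp7− cells, 110 were higher in the mutant (19.1%) and 62 lower (10.7%, median 0.22). Genes that increased in sp7− cells between 0 and 4 dpa had a median of 0.20, with 288 of 1556 higher (18.5%) and 137 lower (8.8%). Genes that decreased in sp7− cells had a median of −0.20, with 134 of 1491 higher (8.99%) and 270 lower (18.1%). For genes that increased or decreased in sp7+ cells over the same time, the medians were 0.05 and −0.05. The last pair of sets came from wildtype fins at 0 and 1 dpa, a comparison that uses no library of 4 dpa but the same fit. Genes that increased between these times were lower in the mutant in 308 of 1273 cases (24.2%) and higher in 152 (11.9%, median −0.20). Genes that decreased between these times were lower in 216 of 1804 cases (12%) and higher in 168 (9.31%, median −0.12), both under the shares over all genes tested. With mutant library 1 left out, at most 27 genes in any of these sets were called in a direction. The medians of the first pair of sets ranged from −0.31 to −0.18 and from 0.11 to 0.29 as single libraries of 4 dpa were left out.

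Genes that lie near fosl1a travel with the mutant allele in the crosses. Of 20 protein-coding neighbours, 10 on each side in the RefSeq gene order of the GRCz12tu assembly, 14 were tested, of which 5 were lower in the mutant and 0 higher. PFDN6, a prefoldin subunit, and YIF1A, a protein of vesicle transport, were lower by −0.94 each, prss23 and si:ch211-126c2.4 by −0.80 each and ATL3 by −0.67. The share of 5 in 14 stands beside the 16.8% called lower among all genes tested, and whether these differences come from the allele's surroundings was not tested.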

How the data were processed

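RNA of unsorted caudal fin tissue was sequenced from poly(A)-selected, unstranded TruSeq libraries. The authors mapped the reads with STAR 2.5.2a to GRCz10, counted uniquely mapped reads per Ensembl gene with featureCounts 1.5.0 and deposited the counts without normalization. Reads were assigned without strand and to every gene they overlapped, so counts of overlapping, antisense and near-identical genes are uncertain.

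From the deposited counts, 20157 of 32105 genes passed edgeR's filterByExpr. The 12 unsorted libraries entered 1 fit of edgeR 4.0.16 (R 4.3.3) with 6 groups and TMM factors, and genotypes and interactions were compared with the quasi-likelihood test. p-values were Benjamini-Hochberg adjusted over all genes tested, and genes with an adjusted p under 0.05 were called. The common biological coefficient of variation was 0.199. Standard errors are the log2 difference divided by the square root of F. Totals of 10194983 to 31507208 counts per library set the precision of low counts, and a floor of 3 counts was used for groups at 0. DESeq2 1.42.0, other scalings and filters, tests against a 2-fold difference, replicate blocks, fits of only the libraries compared and leaving out each library were alternatives. The fits were tested on simulated data. Summaries used Python 3.11.15 with pandas 2.3.3.

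Named genes were fosl1a and the AP-1 subunits, the 15 largest called differences in each direction with non-overlapping libraries, called members of 28 pathway lists, 11 marker lists and gene families, and genes the study discusses. A few of the genes this rule names are not reported here. The 12 genes per direction at 10 CPM or more were added after values had been seen. Members and lists were chosen with earlier results of these data known. Symbols came from the study's tables or a gene name table.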

Additional observations from a re-analysis of the deposited data

Results flagged for a closer look

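The AP-1 subunits, the 15 largest called differences in each direction and the counts of genes were looked through for genotype differences that differed between time points by edgeR's interaction test (adjusted p under 0.05). Values below are the log2 difference at 4 dpa (fosl1a mutant minus wildtype) minus that at the earlier time. The 15 genes in each direction were chosen by the same difference at 4 dpa, which favours large values here. In all, 3720 genes differed in this way from 0 dpa and 4478 from 1 dpa.

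Against 0 dpa, the AP-1 genes were jdp2a (1.96) and mafa (1.43), with positive values, and jund (−1.79), ATF3 (−1.52) and fosl1a (−1.75), with negative ones. Among the genes highest in the mutant at 4 dpa were stm (5.35), fancm (4.10), SPIRE2 (3.35), mbpa (3.15) and c4b (2.71). Among those lowest were igfbp6a (−4.70), SRD5A2 (−4.65) and ucmaa (−2.95).

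Against 1 dpa, mafk (2.67), jdp2a (1.74), mafa (1.56) and fosl1a (1.55) had positive values. Of the genes highest in the mutant at 4 dpa, adgrb1b (6.29), ESPNL (6.23), SLC8A2 (6.002), fancm (3.61), mbpa (2.94) and c4b (1.85) were found. Of those lowest, MATN3 (−7.19), igfbp6a (−5.59), crp6 (−4.55), ucmaa (−4.07), MLLT11 (−3.56), ly6m5 (−3.02) and SNORD54 (−2.74) were found. Fitted values of genes without counts in a group depend on the prior count and are no bound. With 2 libraries in each group, single outlying libraries could not be tested for.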

How the results depend on the processing

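At 4 dpa 5933 genes were called, and their number was 2165 at a false discovery rate of 0.01, 2631 with a 2-fold minimum besides the test, 0 in edgeR's test against a 2-fold difference (1056 with an unadjusted p under 0.05) and 6 in that of DESeq2. Leaving out single libraries gave 126 (mutant library 1 of 4 dpa) to 7793 (mutant library 2 of 0 dpa, which also gave the highest counts of both interactions and of 0 dpa). With DESeq2, other scalings, other filters, replicate blocks or the 4 libraries alone, between 5868 and 8101 genes were called. All called genes kept their sign wherever they had a value, which was all but fixed in advance, as their libraries did not overlap between genotypes. Of them, 5333 were also called by DESeq2. DESeq2's size factors moved the median of all genes to −0.011, and called 2987 genes higher and 2881 lower, against 2555 and 3378 with TMM, while upper quartile factors moved it to −0.135.

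The interaction with 0 dpa (3720 genes) gave 142 genes at 0.01, 31 and 16 in the 2-fold tests of DESeq2 and edgeR, 441 from only the libraries compared and 79 to 7499 with single libraries left out. That with 1 dpa (4478, of which 1877 higher and 2601 lower) gave 459, 64, 46, 7289 and 577 to 6840 under the same settings in the same order, and the split was 2325 and 1991 with DESeq2's size factors and 2722 and 2099 with DESeq2.

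At 0 dpa (71 genes) there were 31 at 0.01, 209 with DESeq2, 17 and 14 in the 2-fold tests of DESeq2 and edgeR, 207 without a filter, 107 with a replicate block set separately per day, 0 in edgeR from only the libraries compared (627 with an unadjusted p under 0.05), and 29 to 1500 with single libraries left out. At 1 dpa (248) there were 23 at 0.01, 649 with DESeq2, 20 and 9 in the 2-fold tests, 570 without a filter, 533 from only the libraries compared, and 7 to 865. The cause of these shifts was not tested, except that stricter thresholds call fewer genes.

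Deviations of same-numbered mutant and wildtype libraries correlated at 0.222, 0.139 and 0.02 at 0, 1 and 4 dpa, and at −0.152 to 0.27 over all pairs of groups, so that the numbers were not taken to pair the libraries. A replicate block called 5894 genes at 4 dpa. Without a library its group has 1 sample, assumed to vary like the other groups. The DESeq2 test against 2-fold and the alternatives for 0 and 1 dpa were added after the data had been seen.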
